A study of Oncorhynchus mykiss with 8 samples.

Results

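The probes described here are the 207 oligonucleotide probes of a salmonid array that its manufacturer's annotation pairs with exactly 1 gene symbol. They were picked out of 43603 probes that are not control features, by a rule on the annotation that used no measured value. The rule was set with earlier results of these data known. Of 221 probes with 1 symbol, 14 were left out by symbol, among them the haemoglobin alpha probes. The 207 probes carry 165 symbols. Of these, 84 are gene abbreviations such as alb1 or b2m, on 103 probes, and 81 are provisional locus identifiers that start with LOC, on 104 probes. The study's lists of differing genes give a protein name to 29 of the 207 probes, 18 of them LOC probes, and these names are used below. Of these, 25 are in the study's lists for muscle, as is 1 unnamed probe, LOC100136486. The study chose those 26 probes on the same arrays, so their direction is not independent evidence. The other 4 named probes, among them alb1 and a zona pellucida glycoprotein, are not in its muscle lists. The 86 LOC probes without a study name are called by identifier only.

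White muscle of large rainbow trout (Oncorhynchus mykiss, Lyndon strain) was compared with white muscle of small fish of the same lot, in a Dec lot and in a Sept lot named for the season of spawning. In each lot 1 male was crossed with 5 females, which gave 5 paternal half-sib families, and the lots shared no parents. The heaviest and lightest immature juveniles of each family were taken at a like age. Sept fish were sampled in early December, near winter solstice, and Dec fish in late February, under lengthening days. A pool of large or of small fish held the RNA of 5 animals, with every family giving 1. A large pool and a small pool were hybridised to the same array with Alexa Fluor 555 and Alexa Fluor 647 and again with the dyes exchanged. Each lot had 2 such pool pairs on 4 arrays, so n = 2 pool pairs per lot. Values are log2(large/small), so large fish had the higher signal where a value is above 0. Where a probe's 4 values in a lot are given, pool pair 1 comes before pool pair 2, and within a pair the array with large fish in Alexa Fluor 555 comes first. The direction of the ratio is a likely one: the dye of every pool is known, but the numerator of the deposited ratio is not stated. On a single array 41909 to 43249 probes had a value. The 2 arrays of a swap correlated at 0.474 in Dec pool pair 2 and between -0.264 and -0.110 in the other 3 pairs, so the agreement between dyes differed between pool pairs. Ratios carry no level, so the labelled tissue could not be checked against muscle markers. In pooled tissue, fewer cells of a type and less RNA per cell cannot be told apart.

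Fish muscle grows throughout life by adding and enlarging fibres. Growth hormone and the insulin-like growth factors act on it through their receptors and binding proteins, and myogenic regulatory factors, Pax7 and myostatin set the supply of new muscle nuclei. A muscle sample also holds blood vessels, resident immune cells, nerve and connective tissue. Albumin, transferrin, apolipoproteins and antithrombin are made mainly by liver and circulate in plasma. Beta-2-microglobulin and the immunoproteasome serve the display of peptides on MHC class I molecules.

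More symbol-bearing probes passed the study's threshold higher than lower in large fish when both dyes were used. In the Dec lot on arrays with large fish in Alexa Fluor 647 alone, 12 of 192 passed higher and 15 lower. All probes leaned lower on those arrays too, with 827 of 41833 higher and 1431 lower. A probe passed the study's threshold where limma's unadjusted p was at most 0.05 and the difference at least 1.2-fold. In both lots a larger share of these probes than of all probes lay above 0: 109 of 188 in the Dec lot (58.0%, against 46.6% of all probes), 120 of 204 in the Sept lot (58.8%, against 48.0%) and 116 of 186 for the mean of lots (62.4%, against 47.2%), with 102 of 186 above 0 for Dec minus Sept (against 47.9%). In the Dec lot 42 of 188 probes tested passed the threshold (22.3%), against 14.1% of all probes, 31 of them higher in large fish (16.5%, against 6.54% of all probes) and 11 lower (5.85%, against 7.59%). In the Sept lot 13 of 204 passed (6.37%, against 2.79% of all probes), 12 higher (5.88%, against 1.16%) and 1 lower (0.49%, against 1.63%). This larger Sept share was not seen among probes with a value on all 8 arrays. There 5 of 186 passed, 4 of them higher, against 1071 of 38488 over all probes, 410 of them higher. Over the mean of both lots 28 of 186 passed (against 6.51% of all probes), 23 of them higher (against 2.6%) and 5 lower (against 3.91%). The median log2(large/small) of the symbol-bearing probes was 0.06 in the Dec lot and 0.05 in the Sept lot, against -0.01 in both lots for all probes. Their standard deviation was 0.54 in the Dec lot and 0.37 in the Sept lot, against 0.29 and 0.17 for all probes in the same lots.

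After Benjamini-Hochberg adjustment over all probes tested, limma called 0 symbol-bearing probes in either lot, in their mean and in their difference, as it called 0.0% of all probes in each. At an unadjusted p of at most 0.05 there were 44 of 188 in the Dec lot (6122 of 39770 over all probes) and 13 of 204 in the Sept lot (1482 of 41524). The lowest adjusted p of a symbol-bearing probe in limma was 0.167 in the Dec lot and 0.9996 in the Sept lot. The methods' t-test also gave 0 symbol-bearing probes after adjustment. Over all probes its form on pool pairs called 3 in the Dec lot and 6 in the Sept lot. On arrays with large fish in Alexa Fluor 555 alone, 9 passed higher and 8 lower in the Sept lot, against 1090 and 926 of all 42394 probes. Single pool pairs also moved these counts. Without Dec pool pair 1 more of all probes passed as well, in the Dec lot and the mean also after adjustment. All probes thus shared that rise, but as a share of probes tested it was larger among symbol-bearing probes. Without Dec pool pair 2 the Dec count over all probes changed little. With a pool pair left out, its lot has 1 pair and adds nothing to the shared spread. Calls in that lot then rest on the spread between the pool pairs of the other lot. Without Dec pool pair 1 the Dec count at the study's threshold was 68 and limma's adjusted test called 12, while without Dec pool pair 2 the count was 49 and the adjusted test called 0. With either Dec pool pair left out the Sept count was 28, as with each lot fitted alone. No Sept value changed there, only the spread. Over all probes, 1654 of 41524 passed in the Sept lot with each lot fitted alone, against 1157 in the shared fit. The count over the mean of both lots was 56 without Dec pool pair 1, and the adjusted test then called 6.

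Of 186 symbol-bearing probes tested in both lots, 4 passed in both, all with the same sign in both lots. They were 2 probes of LOC100136569, the probe of sorf and 1 probe of vdr0, the vitamin D receptor. A further 37 passed in the Dec lot only and 1, gapdh, in the Sept lot only. How many of all probes passed in both lots, or with the same sign in both, was not counted.

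The highest Sept means belonged to LOC100136569. The annotation puts 3 probes on this identifier, and the study names 1 of them max protein, a partner of the Myc transcription factors, and another DNA-damage-inducible transcript 4-like protein, a relative of an inhibitor of mTOR signalling in mammals. The max protein probe, A_05_P478412, stood at 2.41, 0.92, 1.65 and 0.71 on the 4 Dec arrays and at 2.06, 2.41, 2.61 and 2.87 on the 4 Sept arrays. The DNA-damage-inducible transcript probe, A_05_P249334, stood at 2.13, 1.07, 1.28 and 0.14 in the Dec lot and at 1.58, 2.32, 2.64 and 2.91 in the Sept lot. All 16 values were above 0. The means were 1.42 ± 0.18 in the Dec lot and 2.49 ± 0.18 in the Sept lot for the first probe (SE, n = 2 pool pairs, 2.68-fold in the Dec lot and 5.61-fold in the Sept lot). For the second they were 1.15 ± 0.30 in the Dec lot and 2.36 ± 0.30 in the Sept lot (2.23-fold in the Dec lot and 5.14-fold in the Sept lot). The Dec call of the second probe was lost without Dec pool pair 1 (0.71). The third probe of the same identifier, A_05_P461137, which the study does not name, averaged 0.35 in the Dec lot and 0.11 in the Sept lot and passed in neither. The annotation assigns all 3 to the same transcript, and 2 of them lay far from the third.

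Both named probes were higher in the Sept lot than in the Dec lot relative to small fish. The Dec minus Sept difference was -1.06 ± 0.26 for the max protein probe (adjusted p = 0.468, limma) and -1.21 ± 0.42 for the other (adjusted p = 0.528, limma). Without Sept pool pair 2 these differences were -0.81 and -0.80 and neither passed. Without Dec pool pair 2 the second was -0.77 and did not pass, and with the pool pair number as a block it did not pass either at -1.21. On arrays with large fish in Alexa Fluor 555 alone the differences were -0.31 and -0.40, and neither passed.

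Over all symbol-bearing probes, 26 of 186 passed for the Dec minus Sept difference (against 9.22% of all probes), 18 of them with the higher value in the Dec lot (against 4.95%) and 8 with the lower (against 4.27%). This count rose without Dec pool pair 1 and fell without Sept pool pair 2, as did the count over all probes. The split between directions was not stable. On arrays with large fish in Alexa Fluor 647 alone 5 were higher and 9 lower, against 858 higher and 574 lower of 41005 over all probes. With arrays scaled to the same spread 11 were higher and 10 lower, against 1280 and 980 of 38488 over all probes. Without Sept pool pair 1 fewer were higher than lower, among all probes too.

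The lowest values in the Dec lot belonged to 2 LOC probes whose values ran alike over the pool pairs. A_05_P248844 of LOC100136504, which the study names myosin light chain 3-like, a light chain of the myosin motor, stood at -1.08, -2.30, -3.70 and -1.83 on the Dec arrays and at 0.61, 0.42, 0.43 and -0.25 on the Sept arrays. Its Dec mean of -2.23 ± 0.29 is 4.69-fold lower in large fish (adjusted p = 0.167, limma), and its Sept mean was 0.30 ± 0.29 and did not pass. A_05_P302187 of LOC100136486, which has no gene name in the sources used, stood at -0.30, -2.38, -3.67 and -2.14 on the Dec arrays and at 1.15, 0.61, 1.05 and 0.40 on the Sept arrays. All 4 Dec arrays lay below 0 and all 4 Sept arrays above it. Its Dec mean was -2.12 ± 0.39 (4.35-fold lower in large fish, adjusted p = 0.168, limma) and its Sept mean 0.80 ± 0.39 (1.74-fold higher, did not pass). The Dec minus Sept differences were -2.53 ± 0.41 for LOC100136504 and -2.92 ± 0.55 for LOC100136486, each with an adjusted p of 0.466 in limma. The 4 mlc-2 probes, for another myosin light chain, did not run this way. Their Dec means were -0.39, -0.26, -0.02 and 0.52, and their Sept means lay between -0.25 and 0.08. Without Dec pool pair 2 the Dec mean of LOC100136486 was -1.34, and it still passed.

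Transcripts of the MHC class I pathway were among the higher ones in large Dec fish, but only in part. b2m, the light chain of MHC class I, stood at 1.18, 0.11, 1.05 and 1.80 on the Dec arrays and at -0.37, 0.39, -0.22 and 0.30 on the Sept arrays. Its means were 1.03 ± 0.20 in the Dec lot (2.05-fold, adjusted p = 0.172, limma) and 0.02 ± 0.20 in the Sept lot, and the Dec mean was 0.65 without Dec pool pair 2. psmb9b, an immunoproteasome subunit, has 3 probes. A_05_P459622 stood at 0.75, 0.55, 1.30 and 1.01 on the Dec arrays and at 0.20, -0.16, -0.16 and 0.01 on the Sept arrays, with Dec and Sept means of 0.90 ± 0.14 and -0.03 ± 0.14. Every Dec value of this probe lay above every Sept value. A_05_P441057 passed in the Dec lot at 0.36 ± 0.09, with all 4 Dec arrays above 0 and a Sept mean of 0.18, but it did not pass without Dec pool pair 2 (0.25). A_05_P249239 averaged -0.05 in both lots. Dec minus Sept was 1.01 ± 0.28 for b2m and 0.93 ± 0.20 for A_05_P459622 (adjusted p = 0.481 and 0.466, limma). Without Sept pool pair 2 these were 1.02 and 0.89 and neither passed, and without Sept pool pair 1 b2m stood at 1.00 and did not pass.

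The other 7 probes for class I assembly did not pass in either lot. They covered psmb8b and psmb9a of the immunoproteasome, the peptide transporter subunits tap1, tap2a1 (2 probes) and tap2b, and tapasin (tapbp), with Dec means from -0.15 to 0.25. Of all 11 probes of this pathway, a grouping made after the values were seen, 9 were above 0 in the Dec lot and 3 passed, all higher in large fish, while 7 were above 0 and 0 passed in the Sept lot. Over all probes, 46.6% were above 0 and 14.1% passed in the Dec lot, and 48.0% were above 0 and 2.79% passed in the Sept lot. The wider immune list had 21 probes. In the Dec lot 4 of them passed and all were higher, with a median of 0.06 against -0.01 for all probes, and in the Sept lot 0 passed, with a median of 0.02. The fourth was st2, a receptor of the interleukin 1 family, at 0.41, 0.12, 0.92 and 1.28 on the Dec arrays (mean 0.68 ± 0.22) and at -0.20 in the Sept mean. It was 1.10 without Dec pool pair 1 and did not pass at 0.26 without Dec pool pair 2. With either Sept pool pair left out its Dec mean was unchanged, but it did not pass on the Dec spread alone. The interferons ifna2 and ifng, the interferon regulatory factors irf-1 and irf-2, and tumour necrosis factors tnf-alpha-1 and tnf-alpha-2 had Dec means between -0.08 and 0.16 and did not pass.

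Plasma proteins and haemoglobin differed widely between pool pairs. The annotation and the study's names give 10 probes for albumin (alb1), antithrombin, secreted phosphoprotein 24 (spp2), transferrin (trf, 3 probes), apolipoprotein A-I (LOC100136573) and serum amyloid P-component (LOC100136583, 3 probes, 2 of them named by the study). In the Sept lot 9 of the 10 were above 0 and 7 passed, all higher in large fish (over all probes 48.0% were above 0 and 1.16% passed higher). All 7 lacked a value in the Dec lot and so were fitted on the Sept pool pairs alone, and 0 of the 7 passed when they were fitted with the Dec values they had. Antithrombin stood at 0.28, 0.55, 0.30 and 0.58 on the Sept arrays, with a mean of 0.43 ± 0.08, and LOC100136573 at 0.85, 0.41, 1.08 and 1.01, with a mean of 0.84 ± 0.14. The 2 named LOC100136583 probes averaged 1.08 ± 0.12 and 0.95 ± 0.19, with all arrays above 0. LOC100136447, which the study names C-type lectin, a carbohydrate-binding protein, behaved alike at 0.39, 1.60, 1.14 and 2.49 (mean 1.41 ± 0.24). Albumin, spp2 and trf A_05_P249269 also passed at means of 0.70, 1.04 and 0.91, each with 3 of 4 Sept arrays above 0. Without Sept pool pair 2 albumin was 0.38, spp2 0.52 and trf 0.42, and none of the 3 passed, while trf was 1.39 without Sept pool pair 1. The Sept call of antithrombin was lost with either Sept pool pair left out (0.44 and 0.42).

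In the Dec lot the largest ratios of these probes lay in pool pair 2. On the array of that pair with large fish in Alexa Fluor 555, albumin stood at 4.21, antithrombin at 4.15, LOC100136447 at 4.02, spp2 at 4.00, trf A_05_P249269 at 3.92, LOC100136573 at 3.60 and the named LOC100136583 probes at 3.34 and 3.05. In pool pair 1 the means of the same 8 probes lay between -0.36 and 0.92, and single arrays reached 1.87 (LOC100136583 A_05_P492482). On the dye-swapped array of pool pair 2 all 8 had no deposited value, so none of them could be tested in the Dec lot. Among symbol-bearing probes, 8 of the 9 above 3 on the first array lacked a value on the swap, against 1 of 193 up to 3. Over all probes of the array, 60 of 157 above 3 (38.2%) lacked one, against 547 of 42140 up to 3 (1.3%). The authors removed points of low channel ratio before deposit, and whether that filter removed these values was not tested. Of 3 probes of the same symbols that kept both values, 2 were high on both arrays of pool pair 2, and trf A_05_P393692 stood at only 0.41 and 0.37. Transferrin A_05_P474597 stood at 2.57 and 3.1 in Dec pool pair 2 and at 0.99 and -0.48 in pair 1, and LOC100136583 A_05_P249509 at 2.80 and 4.62 in pair 2 and at -0.14 and -0.12 in pair 1.

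The missing values also touched the Sept calls. Of the 13 probes that passed in the Sept lot, 8 had no Dec fit, and these 8 were the probes just named. Their spread was estimated from the Sept pool pairs alone, while other probes shared theirs with the Dec lot. When the single array was allowed to stand for Dec pool pair 2, the Sept means were unchanged but 0 of the 8 passed in the Sept lot. In that fit their Dec means were 1.62 to 2.18 and 2 of them passed in the Dec lot, both LOC100136583. On probes measured on all 8 arrays the Sept count was 5 of 186, against 1071 of 38488 over all probes, which is a like share.

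Haemoglobin moved with them. LOC100136584 has 2 probes that the study names haemoglobin alpha (A_05_P249524) and haemoglobin beta-1 (A_05_P453042), the oxygen carriers of red blood cells. The first stood at 2.77 and 3.64 in Dec pool pair 2, at 0.56 and 0.16 in Dec pool pair 1 and between 0.25 and 1.18 in the Sept lot. The second stood at 2.61 and 3.80, at 0.15 and 0.31 and between 0.44 and 0.98 in the same places. Both were above 0 on all 8 arrays, yet neither passed in the Dec lot (means 1.78 ± 0.69 and 1.72 ± 0.72). As a check on red blood cells, the 3 left-out hba probes averaged 3.40, 3.38 and -0.68 in Dec pool pair 2, 0.47, 0.04 and -0.43 in Dec pool pair 1 and between -0.27 and 0.88 in the Sept pairs, so 2 of the 3 followed the same course. The part of red blood cells in the other results was not tested. The third LOC100136584 probe, A_05_P364477, averaged -0.13 in the Dec lot and -0.11 in the Sept lot.

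In all, 10 symbol-bearing probes had a Dec pool pair 1 mean within 1.2-fold of no difference and a pool pair 2 mean of at least 1. Beside trf, LOC100136583 and LOC100136584 they were LOC100136576 (0.18 in pair 1 and 3.31 in pair 2), LOC100136448 (0.10 and 2.81), LOC100136446 (0.05 and 2.71), LOC100136478, which the study names only alpha 2a pancreatic (0.25 and 2.36), LOC100136930, named zona pellucida glycoprotein (-0.02 and 1.26), fkh (0.04 and 1.10) and slc6a6, the taurine transporter (-0.03 and 1.07). None of the 10 passed in the Dec lot. They were picked by these values, and the share of all probes with the same pattern was not counted. LOC100136478 had 4.64 and 0.08 on the 2 arrays of pair 2, so its pair mean rests on 1 dye. Of the 12 probes that limma's adjusted test called without Dec pool pair 1, 6 were among these 10. The 12 included LOC100136583 A_05_P249509 at 3.71, LOC100136576 A_05_P483957 at 3.31, cyp1a at 1.84, b2m at 1.42, LOC100136486 at -2.91 and LOC100136504 at -2.77, each from 1 pool pair.

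A list of hormone, nuclear and aryl hydrocarbon receptors, which also took in gnrh and pit-1, held 3 of the 11 probes that passed lower in large Dec fish. Of 15 probes 14 were tested there, of which 9 lay below 0 and 5 above it, and 3 passed lower and 1 higher (over all probes 7.59% passed lower and 6.54% higher). The median was -0.23 against -0.01 for all probes. In the Sept lot the median was 0.07, and 0 passed higher and 1 lower. fshr, the follicle-stimulating hormone receptor, stood at -0.25, -0.85, -0.69 and -0.23 on the Dec arrays and at 0.13, -0.26, 0.44 and -0.02 on the Sept arrays. Its Dec mean was -0.51 ± 0.10 (1.42-fold lower in large fish) and its Sept mean 0.07 ± 0.10, so Dec minus Sept was -0.58 ± 0.14, which did not pass without Sept pool pair 2 (-0.44). esr1, an oestrogen receptor, has 2 probes. A_05_P406492 averaged -0.47 ± 0.15 in the Dec lot, with -0.19, -0.31, -0.01 and -1.35 on its arrays, and 0.19 ± 0.15 in the Sept lot. The other, A_05_P249529, averaged -0.33 in the Dec lot and -0.25 in the Sept lot and did not pass. The A_05_P406492 call was lost without Dec pool pair 2 (-0.25), and its Dec minus Sept difference of -0.65 did not pass without Dec pool pair 2 (-0.43) or without Sept pool pair 1 (-0.48).

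vdr0 passed in both lots on 1 of its 2 probes. A_05_P249114 stood at -1.24, 0.15, -0.31 and -0.14 on the Dec arrays and at -0.31, -0.33, -0.19 and -0.62 on the Sept arrays, with means of -0.38 ± 0.11 and -0.36 ± 0.11. The Dec call was lost without Dec pool pair 1 (-0.23) and the Sept call with either Sept pool pair left out (-0.40 and -0.32). A_05_P406413, the other vdr0 probe, averaged -0.16 in the Dec lot and 0.48 in the Sept lot. Of 5 aryl hydrocarbon receptor probes, for sensors of planar aromatic compounds, ahr2g passed in the Dec lot (0.72, 0.13, 0.62 and 0.30, mean 0.44 ± 0.07) and the other 4 lay between -0.45 and 0.26. cyp1a, a monooxygenase that these receptors induce, passed on 1 of 2 probes in the Dec lot. A_05_P248994 stood at 0.85, -0.02, 2.08 and 1.60 on the Dec arrays (mean 1.13 ± 0.35) and averaged 0.52 in the Sept lot. Its Dec mean was 1.84 without Dec pool pair 1 and 0.41 without Dec pool pair 2. With either Sept pool pair left out its Dec mean was unchanged at 1.13, but it did not pass on the Dec spread alone. A_05_P249154 averaged 0.12 in the Dec lot and 0.16 in the Sept lot.

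No growth axis or myogenic regulator probe of this set passed in either lot. Symbols for the insulin-like growth factor receptor and for MyoD were left out by the rule, so these genes are not covered. ghr1, a growth hormone receptor, stood at 0.63, -0.37, 0.84 and 0.86 on the Dec arrays (mean 0.49 ± 0.19) and averaged 0.13 ± 0.19 in the Sept lot. Its Dec value was 0.85 and passed without Dec pool pair 1. igfbp6 and igfbprp1, which bind insulin-like growth factors or resemble such proteins, averaged -0.00 and -0.02 in the Dec lot and 0.25 and -0.08 in the Sept lot. igfbp6 was 0.71 and passed without Sept pool pair 1.

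Myogenic regulators lay near 0 in the Dec lot. gdf-8, which is myostatin, a brake on muscle growth, averaged 0.19 ± 0.10 in the Dec lot and -0.00 ± 0.10 in the Sept lot. mrf4 averaged -0.01 ± 0.24 in the Dec lot and -0.54 ± 0.24 in the Sept lot, where it stood at -0.03, -1.87, 0.16 and -0.43. It was -0.95 and passed without Sept pool pair 2. myf5 averaged -0.09 and -0.04 in the Dec and Sept lots, and pax7, a marker of muscle stem cells, -0.03 and 0.28. With 2 pool pairs per lot and a standard error of 0.24, as for mrf4, a difference near the 1.2-fold threshold was not detectable.

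Several probes for metabolism, stress and structure passed in the Dec lot. hsp70, a chaperone, stood at 2.05, 0.04, 0.69 and 0.27 there, with a mean of 0.76 ± 0.16 that was 0.15 on arrays with large fish in Alexa Fluor 647 only, and averaged 0.23 in the Sept lot. Without Dec pool pair 1 it was 0.48. LOC100136484, named glutathione S-transferase P, a detoxifying enzyme, stood at 1.39, 0.93, 0.43 and 0.85 on its named probe (Dec mean 0.90 ± 0.16, Sept mean 0.39 ± 0.16), and its second probe averaged 0.57 in the Dec lot and 0.59 in the Sept lot. LOC100136564, named 40S ribosomal protein S5, passed on both probes in the Dec lot at 0.78 ± 0.18 and 0.56 ± 0.08, with all 8 values above 0, and averaged 0.07 and 0.11 in the Sept lot. The first of these calls was lost without Dec pool pair 2 (0.66). alp, which the study names PDZ and LIM domain protein 3, a protein of the Z disc, stood at 0.87, 0.24, 0.31 and 0.55 on the Dec arrays and at -0.25, 0.02, -0.24 and -0.41 on the Sept arrays. Its groups did not overlap, and its means were 0.49 ± 0.09 in the Dec lot and -0.22 ± 0.09 in the Sept lot.

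LOC100136565 was higher in large Dec fish on 3 of 4 probes. The study names 2 of them only as middle subunit, without the protein. A_05_P434332 stood at 1.35, 0.11, 2.12 and 1.54 on the Dec arrays and at 0.21, -0.18, 0.38 and -0.52 on the Sept arrays. A_05_P377417 stood at 1.37, 0.41, 1.71 and 0.85 on the Dec arrays, and its Sept arrays lay between -0.41 and 0.47. Their Dec means were 1.28 ± 0.28 and 1.08 ± 0.14, that of A_05_P487227 was 0.74 ± 0.11, and their Sept means were -0.03, -0.02 and -0.15. The fourth probe, A_05_P249324, averaged -0.01 in the Dec lot and -0.09 in the Sept lot. The Dec mean of A_05_P434332 was 0.73 without Dec pool pair 2, and its Dec minus Sept difference, 1.31 ± 0.39, did not pass with either Sept pool pair left out (1.35 and 1.27).

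sorf passed in both lots with almost equal means, 0.71 ± 0.11 in the Dec lot and 0.66 ± 0.11 in the Sept lot. Its arrays stood at 1.54, -0.15, 0.86 and 0.58 in the Dec lot and at 0.04, 1.62, 0.05 and 0.93 in the Sept lot. The Sept value rested on arrays with large fish in Alexa Fluor 647, since on those with Alexa Fluor 555 alone it was 0.04. The Dec value leaned on the other dye, at 1.54 and 0.86 with large fish in Alexa Fluor 555 and at -0.15 and 0.58 in Alexa Fluor 647.

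Probes that share a symbol often gave unlike values. Of 30 symbols with several probes, 27 had at least 2 tested in the Dec lot and 29 in the Sept lot. All probes of a symbol had 1 sign in 15 of the 27 in the Dec lot and in 19 of the 29 in the Sept lot. The gap between the highest and lowest probe of a symbol had a median of 0.46 in the Dec lot and 0.22 in the Sept lot, and reached 1.91 in the Dec lot (LOC100136584) and 2.38 in the Sept lot (LOC100136569). In the Dec lot 17 symbols had at least 1 probe past the study's threshold, and in 2 of them all tested probes passed, gdh2 and LOC100136564. Like counts and gaps for sets of probes without a shared symbol were not made. Close values came from tap2a1, whose probes differed by 0.02, fxyd8 by 0.03 and pck2, a gluconeogenic enzyme, by 0.05, with 0 probes of these 3 symbols passing. Wide gaps also separated the probes of LOC100136525, from -0.57 to 0.76, and of LOC100136589, from 0.08 to 1.27. For gdh2 and mlc-2 the passing probes had opposite signs, and the lower mlc-2 probe, A_05_P488692, did not pass with either Dec pool pair left out.

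gdh2 codes for glutamate dehydrogenase, which links amino acid and energy metabolism. A_05_P246334 stood at 0.77, 0.46, 1.40 and 1.5 on the Dec arrays, and A_05_P249224 at -0.66, -0.13, -0.92 and -0.26. Their Dec means of 1.03 ± 0.23 and -0.49 ± 0.10 do not overlap on any array, and their Sept means were 0.17 and -0.16. Without Dec pool pair 2 the Dec mean of the first was 0.62. The annotation assigns both to the same transcript. The probe of gdh3.1, another glutamate dehydrogenase, averaged 0.02 in the Dec lot and 0.01 in the Sept lot. The platform's name and the study's name for a probe also differed in places. The probe with the platform symbol gapdh, a glycolytic enzyme, is named T-complex protein 1 subunit epsilon, a chaperonin subunit, by the study. It stood at -1.62, 2.02, -1.01 and 1.00 on the Dec arrays and at 0.31, 0.43, 0.92 and 1.44 on the Sept arrays, where its mean of 0.78 ± 0.21 passed, and it was 1.18 without Sept pool pair 1 and 0.37, which did not pass, without Sept pool pair 2.

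For some probes the sign followed the dye and not the size of the fish on all 8 arrays. Of 186 symbol-bearing probes with a value on all 8 arrays, 8 (4.3%) had one sign on all 4 arrays with large fish in Alexa Fluor 647 and the other sign on all 4 arrays with large fish in Alexa Fluor 555, against 2.92% of all probes. The widest split was in 2 mlc-2 probes, for the regulatory light chain of fast muscle myosin. A_05_P248939 stood between 0.85 and 1.71 with large fish in Alexa Fluor 647 and between -1.52 and -0.68 with large fish in Alexa Fluor 555. Averaged over the swap, its Dec mean was -0.02 and its Sept mean 0.02. A_05_P249999, at 0.36 to 2.16 and -1.37 to -0.04 on the same arrays, passed in the Dec lot at 0.52 ± 0.11 although its sign turned with the dye in every pool pair, and did not pass without Dec pool pair 2 (0.39). rtn4 split the other way, at -1.0 to -0.05 with large fish in Alexa Fluor 647 and 0.38 to 1.43 with large fish in Alexa Fluor 555. The other split probes lay closer to 0. trp-i, on 1 of its 2 probes, was at 0.04 to 1.38 with large fish in Alexa Fluor 647 and at -1.07 to -0.01 with large fish in Alexa Fluor 555, and brd2, a bromodomain protein, at -0.58 to -0.03 and 0.12 to 0.50. LOC100136463, tyrp-1, a pigment enzyme, and irf-1 had no value farther from 0 than the 0.40 of LOC100136463. By contrast, 5 probes (2.69%, against 1.03% of all probes) had 1 sign on all 8 arrays, all above 0: 2 of LOC100136569, 2 of LOC100136584 and LOC100136576 A_05_P483957.

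The remaining lists differed in how many probes passed. Of 11 ion transport probes, tested in the Dec lot, fxyd5a (0.56) and fxyd9a (0.30) passed higher and 1 of 2 fxyd12a probes passed lower (-0.47). None of these 3 passed without Dec pool pair 2, at 0.32, 0.24 and -0.26. FXYD proteins adjust the sodium pump. In the Sept lot 0 of 10 passed. Over all probes 6.54% passed higher and 7.59% lower in the Dec lot, and 2.79% passed in the Sept lot. Lipid receptors (3 probes), MAP kinases (3), pigment genes (3) and the survival and nuclear list (5) had 0 passing in both lots. The 86 LOC probes without a name had a median of 0.02 in the Dec lot and 0.03 in the Sept lot. Of 76 tested in the Dec lot 10 passed higher, a larger share than the 6.54% of all probes. In the same lot 4 passed lower, a smaller share than the 7.59% of all probes. Of 84 tested in the Sept lot 0 passed, against 2.79% of all probes. Values were missing too often for a test of 18 probes in the Dec lot, of 2 in the Sept lot and of LOC100136940 in both. gnrh, for gonadotropin-releasing hormone, had 4.42 on 1 Dec array and no value on its swap, and lay between -0.38 and 0.03 on the other 6.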

How the data were processed

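White muscle RNA pools were compared on 8 two-channel Agilent salmonid arrays, 4 per lot, as 2 pool pairs per lot with each pair hybridised in both dye orientations. The authors quantified spots in GenePix Pro, excluded poor spots by hand, removed points below a channel ratio threshold, applied lowess normalization in GeneSpring and deposited 1 log2 ratio per probe and array. The deposited values carry no intensity, so signal over background is unknown. Which channel is on top of the ratio is not given in the sources used here. All values were negated to give log2(large/small), because all 1475 of 1475 listings with values in the lists of differing genes then had the listed sign. Those lists also gave the protein names and showed which probes the study listed for muscle. Their own fold changes and p-values were not used. The 60 control features of 43663 rows were left out.

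The 2 arrays of a dye swap were averaged and counted as 1 replicate. Means per lot were fitted with lmFit and eBayes of limma 3.58.1 in R 4.3.3, with one spread over both lots, on probes measured on every one of the 4 arrays of a lot, with Benjamini-Hochberg adjustment over all probes tested. A value passed the study's threshold at an unadjusted p of at most 0.05 and at least 1.2-fold. Adjusted calls were made at 0.05. Pools of a lot were of different fish of the same 5 half-sib families with 1 sire, so p-values measure spread between pools of shared families. Lot, parents and season of sampling cannot be told apart. The steps were tested on simulated data. Alternatives were array centring and scaling, each lot alone, other filters on missing values, each dye alone, a random pool pair effect with a dye term, the methods' t-test, a replicate block and leaving out each pool pair.

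The probes, gene lists and rules were chosen with earlier results of these data known. The text names the 10 highest and 10 lowest probes of each lot among those that passed with 1 sign on all 4 arrays. It also names the 5 highest and 5 lowest for the mean of lots and for Dec minus Sept, fewer where fewer qualified. All growth axis and myogenic probes that the rule kept are named too. For the mean of lots 1 sign on all 8 arrays was asked, and for Dec minus Sept 1 sign on the 4 arrays of at least 1 lot. Probes of the same symbol are given together. Other probes named were chosen after their values were seen.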

Additional observations from a re-analysis of the deposited data

Results flagged for a closer look

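LOC100136486 A_05_P302187, a probe without a gene name here, was singled out because all 4 of its Dec arrays were lower in large fish and all 4 of its Sept arrays higher. The study's muscle lists, made on these arrays, hold this probe in both lots, so its direction is not independent evidence. The Dec minus Sept difference of log2(large/small) was -2.925 ± 0.55 (SE), with an adjusted p of 0.466 in limma. On arrays with large fish in Alexa Fluor 555 alone the difference was -3.08 and did not pass the study's threshold. With 2 pool pairs per lot, no group was large enough to test a single pool pair as an outlier.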

How the results depend on the processing

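Counts at the study's threshold moved under several alternatives. The Dec count of 42 was 27 on arrays with large fish in Alexa Fluor 647 alone, 12 by the methods' t-test on arrays and 5 by that t-test on pool pairs, and lay between 42 and 68 with a pool pair left out. The Sept count of 13 was 28 with each lot fitted alone, 33 on arrays with large fish in Alexa Fluor 647 alone, 6 with no filter on missing values, 5 on probes measured on all 8 arrays, 3 with a random pool pair effect and a dye term and 4 by the methods' t-test on pool pairs, and lay between 11 and 28 with a pool pair left out. The count of 28 for the mean of lots lay between 23 and 56 with a pool pair left out. The Dec minus Sept count of 26 was 14 on arrays with large fish in Alexa Fluor 647 alone and lay between 17 and 49 with a pool pair left out. Adjusted calls, 0 in limma, lay between 0 and 12 in the Dec lot and between 0 and 6 for the mean of lots with a pool pair left out. Over all probes the Sept count was 1216 of 43560 with no filter and 1071 of 38488 on all 8 arrays. It was 943 of 38488 with a random pool pair effect. In these runs the Sept share of symbol-bearing probes was near or below that of all probes. It stayed above with each lot fitted alone (1654 of 41524) and with Alexa Fluor 647 alone (2528 of 42354). Why each count moved was not tested, except that the filter on missing values decides which probes are fitted with the Dec lot. A left-out pool pair also takes its lot out of the shared spread, so counts of the other lot moved with no change in its values. Counts over all probes rose too without Dec pool pair 1.

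Of the 37 named values that passed, 13 passed under every alternative except the methods' t-tests. Of the 37, 0 changed direction, but those of a lot or of the mean of lots had been chosen for 1 sign on every array. Leaving out a pool pair or using 1 dye could not turn their sign, so this is no measure of their stability. Those t-tests were not counted for named values. Values that changed sign were all of growth axis and myogenic probes that had not passed and were listed whatever their signs. In the Dec lot, centring gave igfbp6 0.0057 and mrf4 0.0027, and scaling gave pax7 0.0014. Arrays with large fish in Alexa Fluor 555 alone gave igfbprp1 0.38, mrf4 0.76 and myf5 0.26, and those with Alexa Fluor 647 gave pax7 0.12. With a Dec pool pair left out, the Dec value of igfbp6 ran from -0.073 to 0.065, that of igfbprp1 from -0.55 to 0.50, that of mrf4 from -0.24 to 0.23, that of myf5 from -0.26 to 0.093 and that of pax7 up to 0.11. In the Sept lot, gdf-8 was 0.0019 after centring, 0.058 after scaling and 0.13 with Alexa Fluor 647 alone. With Alexa Fluor 555 alone igfbp6 was -0.17, igfbprp1 0.32, mrf4 0.068 and myf5 0.021, and with Alexa Fluor 647 alone pax7 was -0.11. With a Sept pool pair left out, igfbp6 ran from -0.22 to 0.71, igfbprp1 from -0.32 to 0.16, gdf-8 from -0.14 to 0.13 and myf5 from -0.10 to 0.027.

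With the replicate block, that is the pool pair number, the Dec minus Sept count was 28. The deviations of same-numbered pairs correlated at 0.0731, and the numbers are only shared names. The t-tests and the lots fitted alone gave no value for the mean of lots or Dec minus Sept. Each lot had 2 pool pairs from the same 5 half-sib families, which limits every error given.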
